A study of Homo sapiens with 3 samples.

Results

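The respiratory chain genes measured here comprise 100 genes with 146 coding RefSeq transcripts, out of 11487 genes with 17868 coding transcripts in the whole table. They were chosen by name, as every coding transcript whose gene symbol starts with NDUF, UQCR, COX or ATP5, together with SDHA, SDHB, SDHC, SDHD, CYC1 and CYCS. The cells were SW480, an established human colon adenocarcinoma line grown in McCoy's medium with serum. Cells transduced with control shRNA gave 2 total RNA libraries and cells transduced with 1 hairpin against RBMS1, an RNA-binding protein of A+U-rich sequence, gave 1 library, all taken 48 hours after transduction. The authors' deposited table gives 1 log2 fold change, knockdown over control, for each transcript, and where a gene has several coding transcripts their median stands for it. With 1 knockdown library there is no replicate check, so no test was run and no error can be given, and the level and depth behind each value are unknown.

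The respiratory chain sits in the inner mitochondrial membrane. Complexes I and II feed electrons from NADH and succinate into ubiquinone, complex III passes them to cytochrome c, complex IV passes them to oxygen, and complex V, the ATP synthase, uses the proton gradient that complexes I, III and IV build. Nuclear genes encode most subunits, mitochondrial DNA encodes a few at the core, and assembly factors build the complexes without staying in them. Colon cancer cells draw on both this pathway and glycolysis for ATP.

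The authors' deposited table puts the 2 transcripts of RBMS1 at −1.36 and −1.62, with a median of −1.49 or 35.6% of control. Since all values were given their direction by taking RBMS1 as the lower one after knockdown, that sign is no check of the labels. Of the colon epithelial markers, 7 of 8 had a value and 6 of these lay below 0, with a median of −0.43. Of all 11487 coding genes 5693 lay below 0. Among these markers the authors' deposited table has distant transcripts at −2.17 and −0.02 for KRT18. For KRT8, the 1 above 0, they run from −0.0047 to 1.82. For other cell types, 1 of 8 leukocyte markers, 0 of 7 fibroblast markers and 0 of 5 endothelial markers had a value. The part of these in the values below was not tested.

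As a group the respiratory chain genes lay slightly above 0 and close together. Their median was 0.11, against 0.00342 for all coding genes, and 72 of 100 lay above 0 where 50.4% of all genes did. Between the quartiles the members spanned −0.03 to 0.24 and all genes −0.26 to 0.22. Within 0.5 of 0 were 92 of the 100, against 77.4% of all genes. The members thus differed from the whole table less by how far they lay above 0 than by how few lay far below it: 2 were lower by at least 0.5, SDHC and COX20, where 13.3% of all genes were, and 6 were higher by at least 0.5, where 9.3% were. At a 2-fold difference, a log2 value of 1, 3 members were higher, NDUFAF5, ATP5PD and NDUFV1, and 0 were lower, with backgrounds of 3.62% and 4.06% of all genes. These shares compare genes within 1 pair of arms and say nothing of how far the libraries would differ by themselves.

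**Figure D1:**
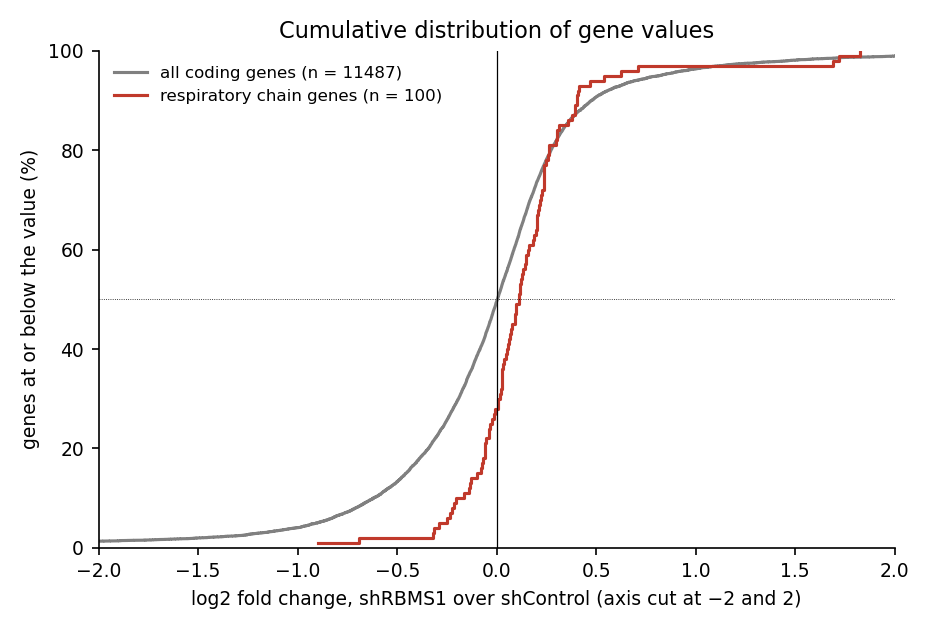
Cumulative share of genes (vertical axis, percent) at or below each log2 fold change (horizontal axis, cut at −2 and 2) for the 100 respiratory chain genes (red) and all 11487 coding genes (grey). The red curve lies below the grey one on the left, with 28 members below 0, and both meet to the right of the members' median of 0.11.

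Ribosomal proteins of the mitochondrion and of the cytosol gave the nearest comparison in the same libraries. The 77 mitochondrial ribosomal proteins had a median of 0.09 with 56 above 0, and the 79 cytosolic ribosomal proteins a median of 0.14 with 68 above 0. The respiratory chain's 0.11 lay between these medians, and no test sets it apart from either. Both sets of ribosomal proteins shared the narrow spread. Within 0.5 of 0 lay 69 of the 77 mitochondrial ones (89.6%) and 75 of the 79 cytosolic ones (94.9%), against 92% of the respiratory chain genes. Lower by at least 0.5 were 4 mitochondrial and 3 cytosolic ribosomal proteins, against 2 of the 100 respiratory chain genes. Few values far below 0 were thus not particular to the respiratory chain.

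Transcripts of these genes are short, and values over the whole table differed with transcript length. Their median length was 1003 bases by GENCODE 29, against 2910 for all coding genes, and 59 of the 99 members with a length fell in the shortest of 10 equal classes of genes by length. All genes of that class had a median of 0.08 and those of the longest class −0.12. Within the shortest class the 59 members had a median of 0.09 with 44 above 0, beside 60.5% of all genes there. The members' spread was the narrower: 94.9% of them lay within 0.5 of 0, against 79.0% of all genes of that class. With each gene measured from the median of its own length class, the members' median was 0.05, and 59 of 99 lay above 0. Whether transcript length has a part in the members' median was not tested.

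**Figure D2:**
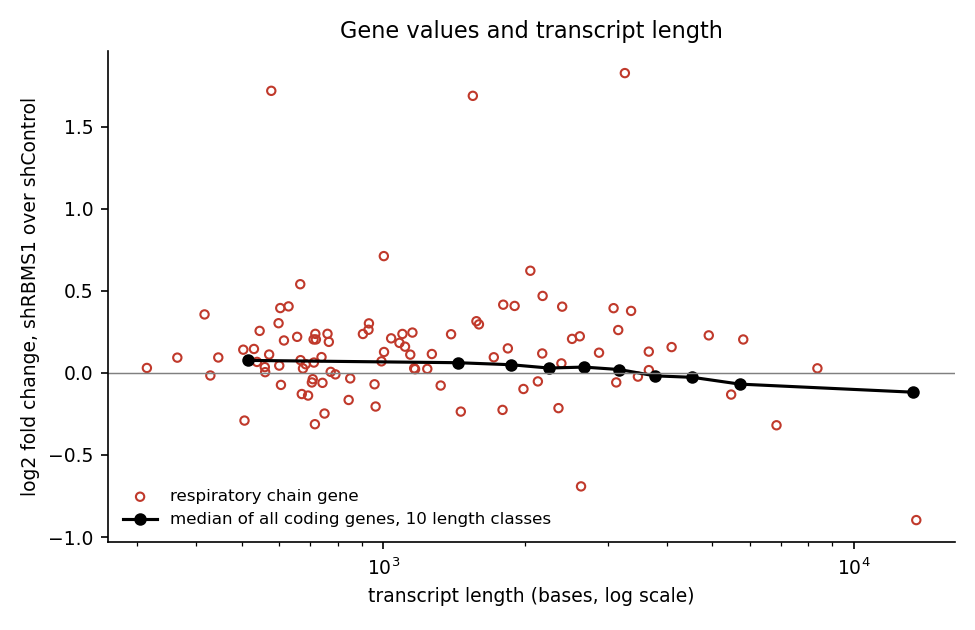
Log2 fold change (vertical axis) against transcript length in bases (horizontal log axis) for each respiratory chain gene (red circles), with the median of all coding genes in each of 10 equal length classes (black). The black line declines from 0.08 to −0.12, and most members sit at its short end.

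The complexes differed little in their medians, which were set side by side without a test. The median was 0.13 over 37 complex I subunits, 0.15 over 4 of complex II, −0.02 over 9 of complex III, 0.09 over 12 of complex IV and 0.09 over 17 of complex V. Above 0 lay 27, 3, 4, 9 and 12 of them, in the same order. Complex III was the single complex with its median below 0, by less than 0.02, and with the transcript nearest 0 of each gene its median was 0.02. Subunits as a whole had a median of 0.09 (79 genes) and assembly factors of 0.12 (17 genes), a difference of −0.03. Measured from the length classes the medians were 0.07, 0.09, −0.04, 0.01 and 0.02 for complexes I to V and 0.09 for assembly factors. The other 4 members are CYCS, ATP5IF1, the copy UQCRHL and a readthrough transcript, and belong to neither class.

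**Figure D3:**
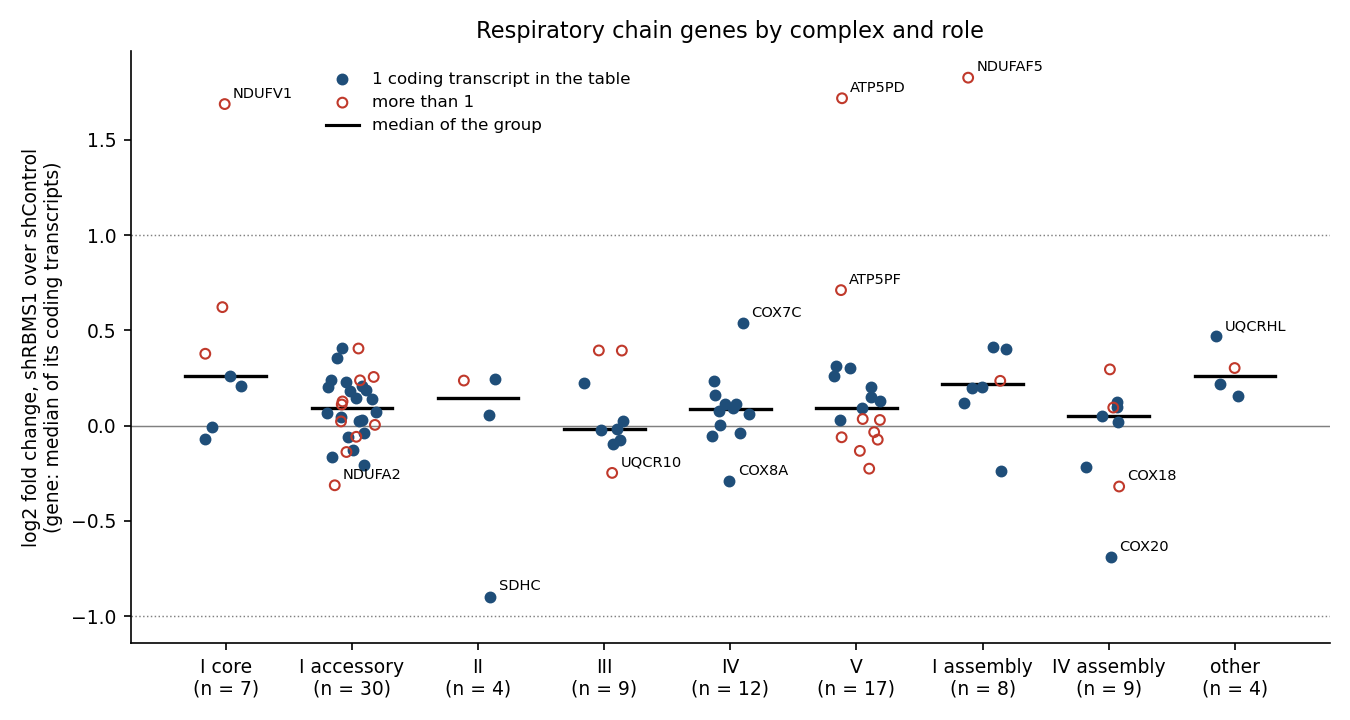
Log2 fold change of each gene (points, vertical axis) by complex and role (horizontal axis), with the median of each group as a bar and dotted lines at −1 and 1. Filled points rest on 1 transcript and open ones on more. The 3 genes above 1 are open points, and SDHC at −0.90 is the lowest.

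Complex I, the NADH dehydrogenase, has an arm in the matrix that carries the flavin and iron-sulfur clusters and an arm in the membrane that pumps protons. Its 16 peripheral arm genes had a median of 0.04 and its 20 membrane arm genes 0.13, while the acyl carrier protein NDUFAB1, which sits in both, stood at 0.24. Among the core subunits NDUFV1, which binds NADH and the flavin, was at 1.69, a value that rests on 2 transcripts on opposite sides of 0, at −0.15 and 3.53 in the authors' deposited table. The iron-sulfur subunits NDUFS1, NDUFV2 and NDUFS7 were at 0.38, 0.26 and 0.21, while NDUFS8, also an iron-sulfur subunit, and NDUFS3 were at −0.00898 and −0.07. All 30 accessory subunits lay within 0.5 of 0. They ran from −0.31 for NDUFA2, in the peripheral arm, to 0.41 for NDUFA5, in the same arm. The authors' deposited table has transcripts at −0.62 and −0.0051 for NDUFA2. The membrane arm ran from −0.20 for NDUFA3 to 0.41 for NDUFB3, and neighbours in this order differ by amounts that cannot be set against any replicate spread. The readthrough transcript NDUFC2-KCTD14, at 0.22, shares exons with NDUFC2, at 0.21, so the reads behind these 2 values cannot be told apart here.

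Complex II, succinate dehydrogenase, held the lowest member of all. SDHC, which with SDHD anchors the enzyme in the membrane and binds heme, is listed in the authors' deposited table at −0.90, which is 53.7% of control. It lies on chromosome 1 at 161314381 to 161363206 (GRCh38.p14), and 5.06% of all coding genes lay lower. The other 3 subunits lay on the other side of 0: the flavoprotein SDHA at 0.06, the iron-sulfur protein SDHB at 0.25 and the second anchor SDHD at 0.24. In the authors' deposited table SDHD has transcripts at 0.61, 0.24 and 0.23, so none came near SDHC. The value of SDHC rests on 1 transcript, NM_003001, of 12 coding ones that RefSeq lists, and the other 11 were not analysed here. No second value can therefore show whether the whole gene or this transcript alone was lower.

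Complex III, which passes electrons to cytochrome c, had its redox subunits near 0 and small accessory subunits on either side. The redox subunits, the Rieske iron-sulfur protein UQCRFS1 and cytochrome c1, CYC1, were at −0.02 and 0.02. The core proteins UQCRC1 and UQCRC2 were at −0.10 and 0.22, and CYCS, the cytochrome c that shuttles electrons to complex IV, at 0.16. The highest of the 9 subunits were the hinge protein UQCRH at 0.40 and UQCRB at 0.39, and the lowest was UQCR10 at −0.25, all of them small accessory proteins. The authors' deposited table has transcripts from 0.06 to 0.70 for UQCRH and at −0.52 and 0.03 for UQCR10. UQCRHL, an intronless copy of UQCRH, was at 0.47. The sources used here do not say how reads were divided between this pair, so both values are uncertain.

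Complex IV, cytochrome c oxidase, was represented by nuclear subunits that surround a mitochondrially encoded core, each with 1 coding transcript in the table. RefSeq lists 6 for COX4I1, 3 for COX7A2 and 5 for COX7A2L, and the others were not analysed here. COX7C was the highest of all 68 members that rest on 1 transcript, listed at 0.54 in the authors' deposited table. COX8A was the lowest of the complex at −0.29 and the other 10 ran from −0.05 for COXFA4, once named NDUFA4, to 0.24 for COX6C. Several subunits have tissue-specific paralogues. Only the general form could be described in each such family: COX4I1 was at −0.04, COX6A1 at 0.11, COX6B1 at 0.08 and COX7A2 at 0.00622, with the related COX7A2L, which links complexes III and IV, at 0.16. Their paralogues COX4I2, COX6A2, COX6B2, COX7A1, COX7B2, COX8C and COXFA4L2 were not analysed here, and neither were the mitochondrially encoded subunits, so no switch between isoforms could be examined.

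Complex V divides into the catalytic F1 head, the peripheral stalk that holds it and the membrane part with the rotating c ring. The catalytic subunits ATP5F1A and ATP5F1B were at 0.20 and 0.15, and the 5 head genes ran from −0.03 for ATP5F1D to 0.20. All 4 stalk genes lay above 0, with ATP5PB at 0.26, ATP5PO at 0.30, ATP5PF at 0.71 and ATP5PD at 1.72. The last 2 values join distant transcripts in the authors' deposited table, from −0.16 to 1.56 for ATP5PF and at 0.06 and 3.38 for ATP5PD. The membrane part had a median of −0.02 over 8 genes, from −0.23 for ATP5MC2 to 0.31 for ATP5MG. ATP5MC1, ATP5MC2 and ATP5MC3 encode the same mature c subunit behind different targeting sequences, and all 3 gene values lay below 0, at −0.07, −0.23 and −0.13. Each of them joins 1 transcript above 0 and 1 below it. The authors' deposited table has 0.05 and −0.19 for ATP5MC1, 0.23 and −0.68 for ATP5MC2, and 0.19 and −0.45 for ATP5MC3. The inhibitor ATP5IF1, which blocks the enzyme from hydrolysing ATP when the gradient fails, was at 0.30.

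Assembly factors of complex I had a median of 0.22 over 8 genes and those of complex IV 0.05 over 9. Among the former, 7 lay above 0, from 0.12 for NDUFAF7 to 1.83 for NDUFAF5, and NDUFAF1 lay at −0.24. NDUFAF4 and NDUFAF6 were at 0.40 and 0.42, each on 1 transcript. Of the complex IV factors, COX20, which acts with the newly made core subunit 2, was the second lowest member, listed in the authors' deposited table at −0.69, which is 61.9% of control. That value too rests on 1 transcript, of 5 that RefSeq lists for the gene. COX10 and COX15, which make heme A, were at 0.12 and −0.21. The copper factors COX11, COX17 and COX19 were at 0.30, 0.05 and 0.02. COX18, which inserts subunit 2 into the membrane, was at −0.32, a middle value of 3 transcripts far apart.

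A further 43 assembly and maturation factors outside the naming rule, all with a value, gave a median of 0.11. Of these 29 lay above 0, beside 50.4% of all genes. Higher by at least 1 were 0 and lower by at least 1 was 1, beside 3.62% and 4.06% of all genes. That one was SURF1, a complex IV factor, for which the authors' deposited table lists transcripts at −8.38 and 1.28. The 13 genes of mitochondrial DNA upkeep and transcription had a median of 0.26 with 11 above 0, beside 50.4% of all genes. Among them the packaging and transcription factor TFAM was at 0.28 and the mitochondrial RNA polymerase POLRMT at 0.25. POLG and TWNK lay below 0, at −0.10 and −0.18. Some of these values join distant transcripts in the authors' deposited table, from −0.65 to 2.85 for MTERF1 and from −0.45 to 1.14 for MTERF2. Of 11 nuclear regulators 8 had a value, with a median of 0.01. NRF1, a transcription factor of many respiratory genes, was at −0.79 and the coactivator PPRC1 at 2.18. Both join distant transcripts in the authors' deposited table, at −2.12 and 0.54 for NRF1 and at −0.43 and 4.79 for PPRC1.

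Large values among respiratory chain transcripts were all in genes with several. Of the 146 transcripts 11 lay at or beyond 1 in either direction, 7.53% against a background of 15.7% of all coding transcripts. They belong to 10 genes, all of which have more than 1 transcript in the table. Large values lay mostly in such genes over the whole table too. Of its 2805 coding transcripts at or beyond 1, genes with 1 transcript gave 201 higher and 231 lower. Among the 68 members with 1 transcript, 65 lay within 0.5 of 0, where 81% of all genes with 1 transcript did. Of the 32 members with more than 1 transcript, 10 had transcripts more than 1 apart, against 48.4% of all such genes.

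**Figure D4:**
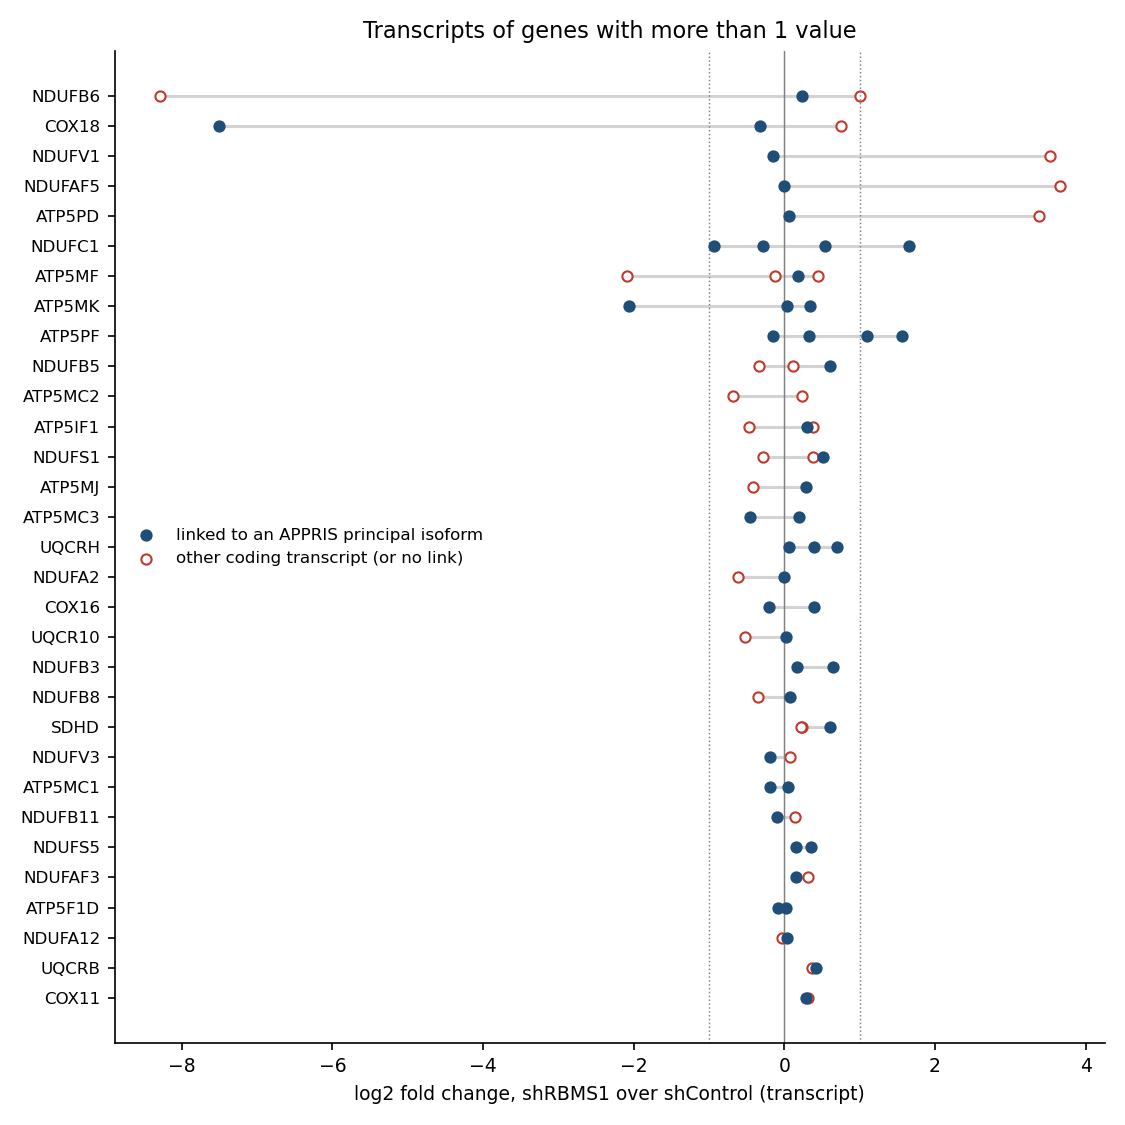
Log2 fold change (horizontal axis) of every coding transcript of genes with more than 1, 1 line per gene in order of their spread, with 1 of the 32 such genes not shown. Filled points are transcripts that GENCODE links to an APPRIS principal isoform and open points the others. For NDUFV1, NDUFAF5, ATP5PD and NDUFB6 the filled point lies near 0 and an open point at 3.53, 3.66, 3.38 and −8.29. In COX18 a filled point lies at −7.50.

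The APPRIS catalogue marks a principal isoform of each gene from conserved sequence and structure. In 20 members exactly 1 transcript is linked to such an isoform by GENCODE 29 and the others are linked to different ones. Their principal transcripts ran from −0.29 to 0.61 with a median of 0.12, and 0 of 20 lay at or beyond 1. Of their 27 other transcripts 6 did, and all 27 ran from −8.29 to 3.66 with a median of 0.14. Over 2504 genes of the whole table chosen the same way, 13.4% of principal and 25.8% of other transcripts lay at or beyond 1. Members with more than 1 transcript linked to a principal isoform fell outside this choice, and some of those transcripts had large values. The authors' deposited table lists NDUFC1 at 1.66, ATP5PF at 1.09 and 1.56, ATP5MK at −2.06 and COX18 at −7.50 among them. The 0 of 20 thus does not cover all principal transcripts of the members.

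Each of the 3 genes above 1 joined a principal transcript near 0 with another isoform far above it. For NDUFV1 the authors' deposited table has the principal transcript NM_007103 at −0.15 and NM_001166102 at 3.53. ATP5PD, a subunit of the stalk, is listed in the authors' deposited table with NM_006356 at 0.06 and NM_001003785 at 3.38. NDUFAF5, a complex I assembly factor that hydroxylates a core subunit, has in the authors' deposited table NM_024120 at −0.00266 and NM_001039375 at 3.66. The first of each pair has the longer coding sequence, of 1395 against 1368 bases in NDUFV1, 486 against 414 in ATP5PD and 1038 against 954 in NDUFAF5. With the transcript nearest 0 as the gene's value, 0 members were higher by at least 1, against 2.47% of all genes. For these 3 genes that choice fixes the outcome, since each has a transcript near 0.

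Exon structure in GENCODE 29 (hg38) shows what separates these isoforms. NM_001166102 of NDUFV1 lacks the last 27 bases of an exon at chr11:67607050-67607076 on the plus strand, 9 codons, and the stretch that it leaves out begins with gt, the letters of a splice donor. The exon at chr17:75040092-75040163 on the minus strand, 72 bases or 24 codons, is skipped in NM_001003785 of ATP5PD. In NDUFAF5, NM_001039375 skips an exon of 104 bases at chr20:13794838-13794941 on the plus strand and gains 20 bases at chr20:13793160-13793179. NDUFB6, an accessory subunit of the membrane arm on chromosome 9, has 2 such forms: NM_182739 lacks 45 bases at chr9:32558910-32558954 and NM_001199987 lacks 93 bases at chr9:32570960-32571052, both on the minus strand. The authors' deposited table lists them at 0.998 and −8.29, and the principal transcript NM_002493 at 0.24. These sequences are printed because reads over them are what can tell the isoforms apart. The left-out stretch is given first, then the junction in the isoform without it, 15 bases on each side with the 3′ side in capitals.
NDUFV1 left out: gtatctgtgcgtttcagcggcgacacg
NDUFV1 junction: tcgcttcccgcgcggACAGCACCCAAGAAA
ATP5PD left out: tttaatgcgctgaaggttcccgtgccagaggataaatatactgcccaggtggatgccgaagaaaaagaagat
ATP5PD junction: gactttgagaagaagGTGAAATCTTGTGCT
NDUFAF5 left out: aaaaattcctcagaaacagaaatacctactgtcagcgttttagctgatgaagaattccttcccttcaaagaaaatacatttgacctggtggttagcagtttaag
NDUFAF5 junction: gcagaaaatgctttgTTTGCATTGGGTGAA
NDUFB6 left out of NM_182739: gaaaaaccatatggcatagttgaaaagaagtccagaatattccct
NDUFB6 junction of NM_182739: aagtatcatgtttctGGTGATACAATTCTG
NDUFB6 left out of NM_001199987: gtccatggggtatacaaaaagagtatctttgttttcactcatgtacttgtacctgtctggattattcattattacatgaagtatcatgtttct
NDUFB6 junction of NM_001199987: ccttggaggaaaatgGAAAAACCATATGGC

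The 2 alternative forms of NDUFB6 went opposite ways, and each lacks a different whole exon of the 4 in the principal form. With no level per library, a value of −8.29 cannot be told apart from a level near 0 in the knockdown library alone. The same holds for COX18, which the authors' deposited table lists at −7.50, −0.32 and 0.76. Its transcripts at −7.50 and −0.32 share 1 GENCODE model, so their structures could not be compared.

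In some genes the transcripts lay apart although the GENCODE models linked to them have coding sequences of 1 length. NDUFC1, an accessory subunit of complex I, has 4 transcripts with a coding sequence of 231 bases, listed at −0.94, −0.28, 0.54 and 1.66 in the authors' deposited table. ATP5PF, coupling factor 6 of the ATP synthase stalk, has 4 with 327 bases, which the authors' deposited table lists at −0.16, 0.33, 1.09 and 1.56. ATP5MK, a small membrane subunit, has 3 with 177 bases, for which the authors' deposited table gives −2.06, 0.04 and 0.35. In these 3 genes the transcripts share their coding length, and each value depends on how shared reads were divided, which the sources used here do not give. The medians of NDUFC1 and ATP5MK, 0.13 and 0.04, were near 0, while that of ATP5PF was 0.71.

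RBMS1 is known to bind AUAUA in 3′ UTRs, written ATATA in DNA letters. By GENCODE 29, 37 of 99 members (37.4%) hold these letters in the 3′ UTR of a measured transcript, against 58.7% of all coding genes. Their longest measured 3′ UTR had a median of 262 bases, against 1120. The 37 members with the letters had a median of 0.13 with 28 above 0 and the 62 without 0.07 with 44 above 0. Over all coding genes the median was likewise higher with the letters, at 0.0127 against −0.0089 without. There 3407 of 6614 genes with the letters and 2284 of 4658 without lay above 0. The 2 lowest members both hold the letters, COX20 with 4 matches and SDHC with 14. GENCODE's model of SDHC, with a 3′ UTR of 12907 bases, ends at 161375340, past the 161363206 that RefSeq gives the gene. Most of the stretch searched for SDHC thus lies beyond that end, and the matches before it were not counted apart. SDHD with 5 matches, NDUFS1 with 12 and UQCRB with 9 lay above 0, and COX18 with 9 below. The first match in SDHC, COX20 and SDHD is shown with 12 bases on either side and ATATA in capitals.
SDHC: tttgaggagaaaATATAtagctttggaca
COX20: cttacgtgttacATATAgtggacttgtca
SDHD: taactaaacatgATATAtcagcttttgcc

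Promoters were searched for letters of 3 factors known to act on respiratory chain genes, over 250 bases before to 50 after the start of each gene in RefSeq (GRCh38.p14), on both strands. Of the 100 members 84 had a promoter sequence there. The NRF1 letters GCGCNNGCGC were found in 20 of 84 (23.8%), against 16.6% of 9527 promoters of coding genes in the table. The ETS letters CCGGAAG were in 24 (28.6%), against 20.5%, and the YY1 letters AAGATGGCG in 9 (10.7%), against 4.29%. Matches of different factors did not overlap in the members.

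Members with the NRF1 letters lay lower than members without. Their median was −0.00908 with 10 of 20 above 0, and the 64 without had 0.13 with 49 above 0. Over all coding genes the medians were 0.02 with the letters and 0.01 without. Median transcript GC content was 48.3% in members with the letters and 48.7% in those without. For the ETS letters the members' medians were 0.10 with and 0.09 without, and for YY1 0.04 and 0.10. The difference for NRF1 is a description of 84 genes in 1 pair of arms, with no test.

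**Figure D5:**
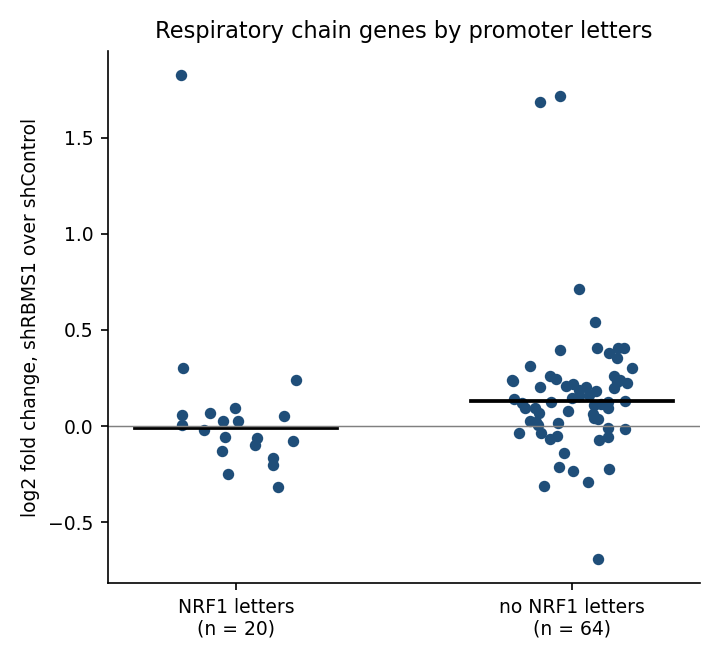
Log2 fold change (vertical axis) of the 84 respiratory chain genes with a promoter sequence, split by whether the promoter holds the NRF1 letters, with the median of each as a bar. Of the 20 with the letters 10 lie above 0, with NDUFAF5 at 1.83 the highest, and 49 of the 64 without lie above 0.

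Promoters with the most matches to the NRF1 letters, and that of COX7C for contrast, show what the search found. Matches to any of the 3 motifs are in capitals. SDHA has 4 NRF1 matches, all with the same letters, at chr5:218070-218369 on the plus strand. NDUFB4 has 3, at chr3:120596086-120596385 on the plus strand. COX7C, at chr5:86617691-86617990 on the plus strand, has no match to any of the motifs, which says only that these letters are not in this window. The gene values were 0.06 for SDHA, −0.13 for NDUFB4 and 0.54 for COX7C. COX7C is 1 example, and members with no match to any motif ran from −0.69 for COX20 to 1.69 for NDUFV1.
SDHA: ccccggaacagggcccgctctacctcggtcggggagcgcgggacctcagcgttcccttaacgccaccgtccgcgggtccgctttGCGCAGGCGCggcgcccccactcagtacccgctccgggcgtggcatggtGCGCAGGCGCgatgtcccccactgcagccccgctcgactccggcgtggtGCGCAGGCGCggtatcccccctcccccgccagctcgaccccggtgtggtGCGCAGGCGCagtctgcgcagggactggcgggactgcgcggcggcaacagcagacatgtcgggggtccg
NDUFB4: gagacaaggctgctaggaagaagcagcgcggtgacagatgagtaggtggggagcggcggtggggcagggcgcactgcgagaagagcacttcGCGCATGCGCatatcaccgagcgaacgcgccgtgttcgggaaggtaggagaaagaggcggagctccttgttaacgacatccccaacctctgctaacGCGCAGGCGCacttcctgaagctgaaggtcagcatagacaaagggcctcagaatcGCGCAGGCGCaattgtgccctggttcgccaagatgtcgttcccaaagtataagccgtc
COX7C: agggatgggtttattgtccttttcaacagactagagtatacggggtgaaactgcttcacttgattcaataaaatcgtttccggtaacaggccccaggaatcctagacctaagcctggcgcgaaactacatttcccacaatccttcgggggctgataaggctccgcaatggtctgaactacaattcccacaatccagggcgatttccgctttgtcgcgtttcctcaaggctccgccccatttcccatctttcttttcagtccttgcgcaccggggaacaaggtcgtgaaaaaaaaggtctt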

How the data were processed

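The 3 libraries, 2 shControl and 1 shRBMS1, were made from total RNA after Ribo-Zero Gold removal of ribosomal RNA and a ScriptSeq v2 preparation, per the labels' protocols. STAR 2.5, Cufflinks, Cuffdiff and hg38 are named, per the submitters' processing notes, without roles or settings. The authors deposited log2 fold changes for 20104 RefSeq transcripts. Neither base nor direction is in the header. Repeated values are spaced as base 2 would give (20 transcripts lay 1 from a value seen at least 3 times, within 1.5e-05, against 4 for ln 2 and 5 for log10 of 2), and the direction was read from RBMS1.

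Symbols came from RefSeq (GRCh38.p14), which matched 17868 of 17994 coding transcripts (99.3%). Non-coding rows of member genes were left out by the rule. Transcript structure, APPRIS marks and UTRs came from GENCODE 29 through its RefSeq links, which can join several RefSeq transcripts to 1 model. Members, lists and the rule for named genes were chosen with earlier results of these data known. The rule named the highest and lowest gene of each group, every member with a value at or beyond 1, core subunits and paralogue families. Differences were described with no test, since the knockdown has 1 library. The collapse to genes was tested on simulated data with known shifts. Alternatives were other values per gene, thresholds, centring, and classes by length and GC. Python 3.11.15, pandas 2.3.3 and numpy 2.4.6 were used. The results for 1 gene and 1 sequence are not reported here.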

Additional observations from a re-analysis of the deposited data

How the results depend on the processing

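Of 112 recomputed values, 96 kept their sign and moved by at most 0.1 on the log2 scale, or stayed within 1.5 times for counts. The limit of 0.1 is about as large as the medians themselves, so keeping within it says little of their size. Measured from the length class, the medians of complexes IV and V fell from 0.09 and 0.09 to 0.01 and 0.02 and still counted as kept. The count of members higher by at least 1 was 3 in the report. It was 0 with the transcript closest to 0 (2.47% of all genes), with genes of 1 transcript (2.75%) and with principal transcripts alone (3.27%). It was 6 with the transcript farthest from 0 (9.16% of all genes), and 7 of 146 with every transcript on its own (7.77% of all transcripts). It was 6 at a threshold of 0.5 (9.3% of all genes) and 0 at a threshold of 2 (1.08%). The count lower by at least 1, 0 in the report, was 2 with the mean of transcripts (4.97% of all genes), 4 with the transcript farthest from 0 (10.2%), 4 of 146 with every transcript on its own (7.93%), 2 at a threshold of 0.5 (13.3%), and 1 of 97 with principal transcripts alone (4.67%). The complex III median of −0.02 turned to 0.0245 with the transcript closest to 0 and with principal transcripts alone, 0.0265 with every transcript on its own and 0.0762 when measured from the median of 10 equal classes by GC. Over all alternatives the median of the members ran from 0.05, measured from the length class, to 0.15, measured from the GC class. The settings with principal transcripts and the GC classes were chosen after seeing the data. Fewer genes or other transcripts enter these settings by construction. No paired analysis was possible because the table holds 1 fold change per transcript and no value per library, and for the same reason no library could be left out.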
